A study of Arabidopsis thaliana with 26 samples.

Results

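The effect of the jkd mutation over quiescent centre cells and root meristems together was measured on 12 of the 26 microarrays of a study of the Arabidopsis root. The arrays were chosen from the labels by genotype and tissue, 6 from jkd plants and 6 from wild type plants. A model with genotype and tissue as its terms gave 1 jkd effect over both tissues. That effect is an average, so it can come mostly from 1 tissue. The jkd QC group (3 arrays) was made of quiescent centre (QC) cells of the allele jkd-4. Its counterpart, the WT QC group (3 arrays), was made of QC cells of Col-0 plants grown beside the mutant. In both, cells were sorted by green fluorescent protein under the WOX5 promoter, so each array measured a pool of cells in which that promoter was active. The jkd meristem group and the WT meristem group (3 arrays each) were made of excised root meristems, and their labels name no allele, line or reporter. All 12 arrays came from roots at 3 days after germination without hormone treatment. A further wild type QC harvest of 3 arrays, made separately with the same promoter, was used only as a second wild type value, and the remaining arrays, a time series under the synthetic auxin 2,4-D, were not used. Titles and source names gave the genotype, because the free-text descriptions of jkd arrays name another profile (QC) or a control (meristem). Whether replicate arrays stem from separate plantings is not stated in the labels, so p-values reflect only array to array spread, and that spread could be technical.

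JACKDAW (JKD) is a zinc finger transcription factor of the INDETERMINATE DOMAIN (IDD) family. It acts in the ground tissue, the layers that form cortex and endodermis, together with the GRAS family regulators SHORT-ROOT (SHR) and SCARECROW (SCR), and it helps to hold SHR in the layer next to the stele. The QC is the small group of rarely dividing cells at the root tip that keeps the surrounding stem cells undifferentiated. The endodermis, a daughter of the same stem cells, builds the Casparian strip, a lignin barrier laid down on a scaffold of CASP proteins.

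Values are linear signals of single probe sets, and differences are jkd minus wild type on log2(signal + 16), so that a difference of 1 is a doubling in strong genes and less than the true change in weak ones. Genes are said to pass where limma gave an adjusted p below 0.05 over 11469 tested probe sets, and errors written with ± are standard errors of that fit. The median signal was 65.5 to 67.5 on the jkd QC arrays, against 74.8 to 85.4 on the WT QC arrays, and 75.2 to 84.6 in jkd meristems, against 75.7 to 85.7 in WT meristems. Replicates were less alike in the QC (correlations of 0.908 to 0.918 in jkd and 0.908 to 0.946 in wild type) than in meristems (0.984 to 0.986 in jkd and 0.981 to 0.992 in wild type). The median standard error was 0.444 in the QC alone and 0.198 in meristems alone, and 0.245 over both. The jkd minus wild type difference of plastid transcripts was 0.0005 over both tissues (exact permutation test within tissue, two-sided, p = 1.0), and that of mitochondrial transcripts was 0.0546 (p = 0.755), from -0.0426 in the QC and 0.1518 in meristems. In meristems the mean log2 mitochondrial signals did not overlap, at 5.9393 to 5.9959 in jkd and 5.7998 to 5.8286 in wild type. Of 16 QC and niche markers 12 were on the table, with summed signals of 2500 to 3692 in jkd QC and 2737 to 4064 in WT QC, against 1353 to 1521 in jkd meristems and 1385 to 1454 in WT meristems. WOX5 itself was not analysed here. In bulk RNA, fewer cells of a type and less transcript per cell cannot be told apart.

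JKD was low in every mutant array. Its signals were 1.37, 24.9 and 6.60 in jkd QC, against 68.7, 74.0 and 108.7 in WT QC. In jkd meristems they were 11.3, 13.4 and 6.23, against 201.2, 172.8 and 184.5 in WT meristems. The groups did not overlap in either tissue, and the low signals lay in the arrays that titles and source names call jkd. Over both tissues JKD was lower by a log2 difference of -2.46 ± 0.27 (adjusted p = 0.000126). In meristems alone it was -2.95 ± 0.19 (adjusted p = 2.45e-06). In the QC alone it was -1.96 ± 0.52 and did not pass (adjusted p = 0.2), and the jkd signals there are so low that the size depends on the added constant.

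Over QC cells and meristems together, the genes that passed were mostly higher in jkd. Of the 11469 tested probe sets 30 passed over both tissues (0.262%), 25 higher (0.218%) and 5 lower (0.0436%) in jkd, while 1141 had an unadjusted p under 0.05 (9.95%), 436 higher (3.8%) and 705 lower (6.15%), the opposite balance. The count of 30 ran from 16 to 31 when 1 array was left out, was 196 with array weights, and was 561 (259 higher, 302 lower) with the separate wild type QC harvest in place of WT QC, so it does not say how many genes differ. The largest rises were at 3 neighbouring loci on chromosome 3. Further rises included NAP, a NAC transcription factor of senescence, the sucrose cleaving enzyme genes CINV2 and SUS1, and 3 genes of flavonoid synthesis. The falls, besides JKD, included CASP5 of the Casparian strip and the cytochrome P450 gene CYP705A12. Absolute log2 differences ran from 0.78 to 4.82, and 28 of the 30 genes differed by at least 1.

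**Figure D1:**
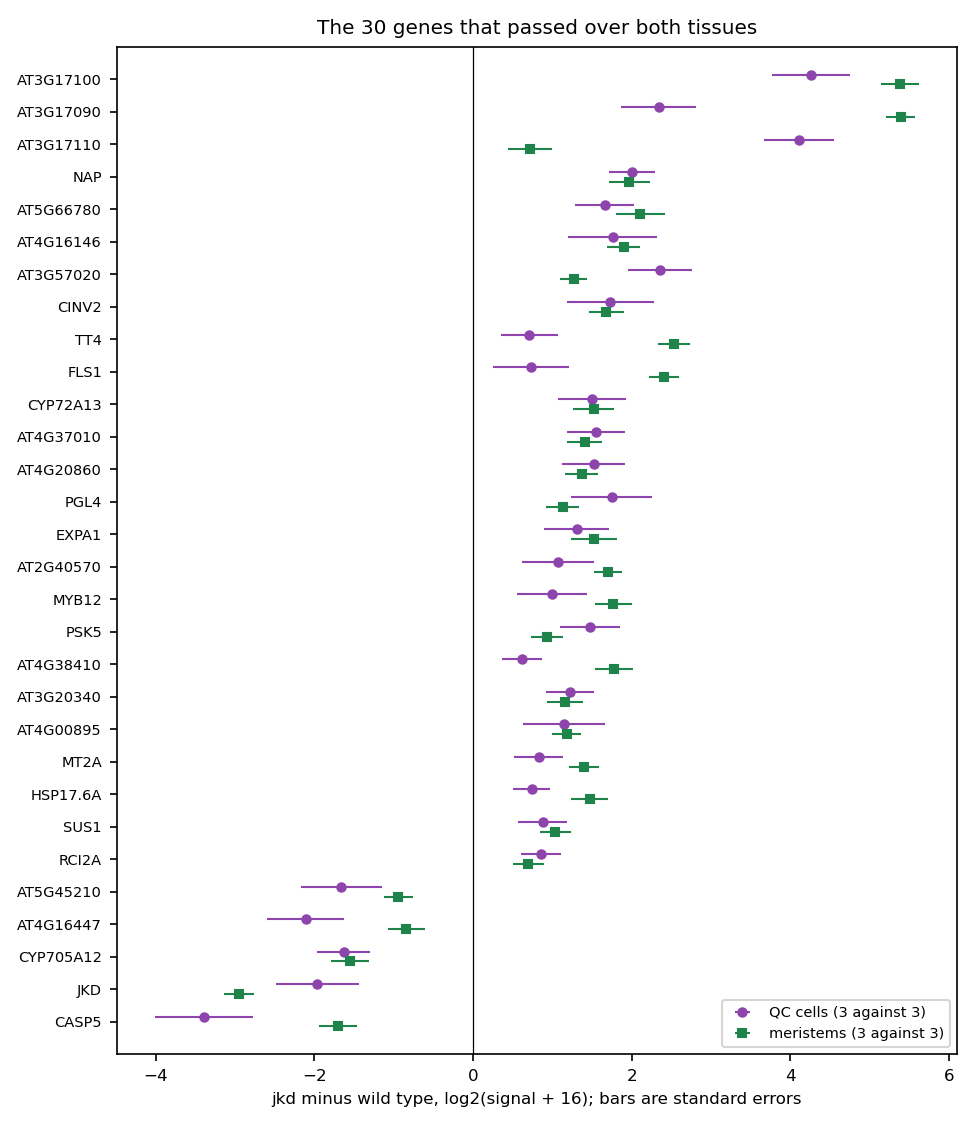
The 30 genes that passed over both tissues, with the jkd minus wild type difference on log2(signal + 16) in QC cells (circles, 3 arrays against 3) and in meristems (squares, 3 arrays against 3); bars are standard errors of each tissue's own fit. The signs match for all 30, and the circles and squares lie furthest apart for AT3G17110, AT3G17090, TT4, CASP5 and FLS1.

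The tissues share no array, so each gives its own reading of a gene. All 30 genes had the same sign in both tissues, beside 54.7% of all tested probe sets, but the additive model favours such genes and this count is a description. The 3 jkd arrays lay on the same side of the 3 wild type arrays in both tissues for 27 of the 30, 22 above and 5 below. Of all tested probe sets 1.54% did so (0.828% above and 0.715% below), and 0.497% lay apart on opposite sides. The exceptions were TT4 and MT2A, whose groups overlapped in the QC, and AT3G17110, whose groups overlapped in meristems. The 30 genes were chosen on these same arrays, so the count of 27 is a description too. The 25 higher genes had a median difference of 1.48 in the QC and 1.52 in meristems, and the 5 lower genes had -1.96 in the QC and -1.55 in meristems. Fitted alone, the QC called 14 genes (0.122%; 10 higher, 0.0872%, and 4 lower, 0.0349%) and meristems 101 (0.881%; 85 higher, 0.741%, and 16 lower, 0.14%). With quantile normalization the QC split was 11 higher and 2 lower. Of the 14, 12 had the same sign in meristems, and 7 of these 12 also had an unadjusted p under 0.05 there. Of the 101, 80 had the same sign in the QC, and 35 of these 80 also had an unadjusted p under 0.05 there. With either sign, 7.8% of all tested probe sets had such a p in meristems and 9.1% in the QC. These shares do not require a matching sign, so they are not a like measure. Both fits called 4 genes, AT3G17100, NAP, AT3G57020 and CASP5. Of the 30 genes that passed over both tissues, 26 also passed in the meristem fit, 5 in the QC fit and 3 in neither. Passing over both tissues is therefore not the same as passing in each. Across all tested probe sets the 2 effects had a Pearson correlation of 0.204 and a Spearman correlation of 0.141, given as a description over genes, which are not independent.

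**Figure D2:**
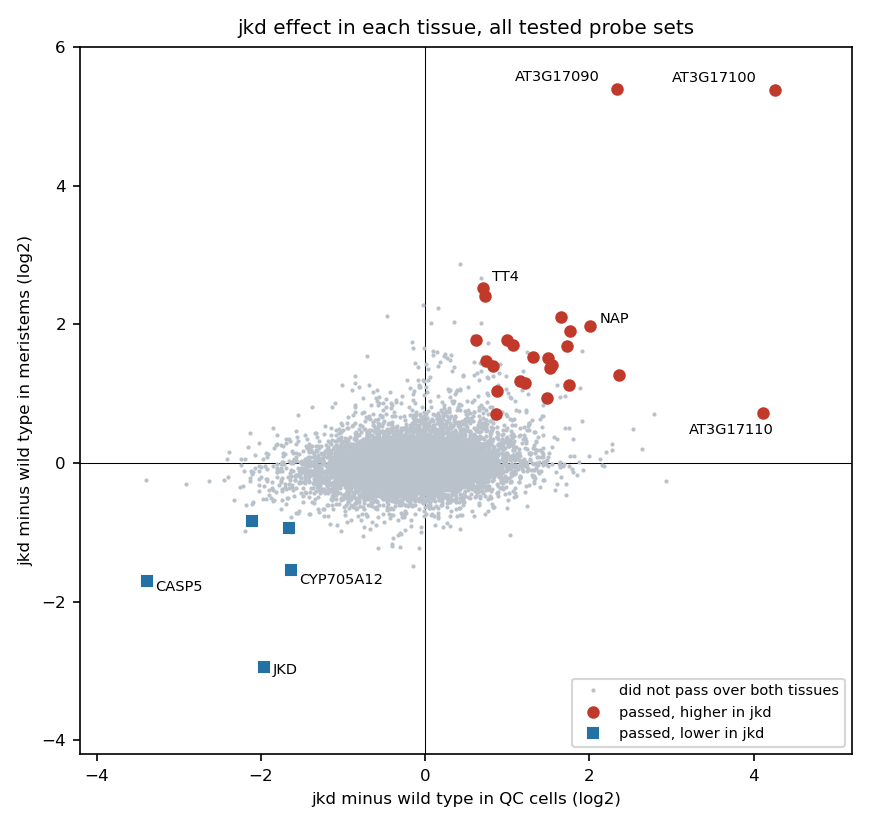
The jkd minus wild type difference (log2) in QC cells (horizontal axis) and in meristems (vertical axis) for the 11469 tested probe sets. The 25 higher genes that passed over both tissues (circles) lie in the upper right and the 5 lower ones (squares) in the lower left. The rest form a cloud that is wider along the QC axis, and some of them lie as far out as genes that passed.

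The 3 loci on chromosome 3 gave the largest rises among the 30 genes. AT3G17100 encodes AIF3, a member of a group of atypical bHLH proteins first known as partners of ATBS1. Its signals were 713.9, 1049 and 393.0 in jkd QC, against 22.4, 4.00 and 42.3 in WT QC. In jkd meristems they were 774.0, 1199 and 609.1, against 3.88, 1.83 and 7.66 in WT meristems. The weakest jkd array lay well above the strongest wild type array, and the separate wild type QC harvest was also low (19.0, 6.30 and 2.40). AT3G17100 rose by 4.82 ± 0.32 over both tissues (adjusted p = 7.38e-08), by 4.26 ± 0.49 in the QC (adjusted p = 0.00138) and by 5.38 ± 0.24 in meristems (adjusted p = 5.18e-08). Wild type signals here are near the bottom of the scale, so the size depends on the added constant, from 3.40 to 6.34 over all settings tried.

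AT3G17090 and AT3G17110, the genes on either side of AT3G17100, differed in where they were high. AT3G17090 had 312.3, 519.1 and 435.9 in jkd QC, against 35.3, 52.2 and 158.8 in WT QC. It had 595.7, 725.6 and 726.7 in jkd meristems, against 0.47, 0.62 and 0.53 in WT meristems, and over both tissues it rose by 3.87 ± 0.44 (adjusted p = 0.000161). Its groups were apart in both tissues, and its WT meristem signals are at the bottom of the scale, so the sizes depend on the added constant (2.67 to 5.70 over both tissues in all settings tried). AT3G17110, annotated as a transcribed pseudogene, had 654.7, 1199 and 736.8 in jkd QC, against 38.6, 13.8 and 57.1 in WT QC. In jkd meristems it had only 13.5, 18.8 and 34.2, against 19.0, 1.35 and 2.89 in WT meristems. Over both tissues it rose by 2.42 ± 0.48 (adjusted p = 0.0405), a call lost in 14 of the 23 other settings that tested it, the leaving out of any single QC array among them. The effect in the QC minus that in meristems was 3.39 ± 0.57 for AT3G17110 and -3.05 ± 0.54 for AT3G17090, and neither difference passed (adjusted p = 0.0781 for each); the value of AT3G17090 rests on the same low WT meristem signals. The nearest tested genes beyond these loci did not pass: HCF107 was at -0.16, AT3G17120 at -0.20 ± 0.28 and AT3G17130 at -0.50 ± 0.27. The reason for high signal at adjacent loci was not tested.

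**Figure D3:**
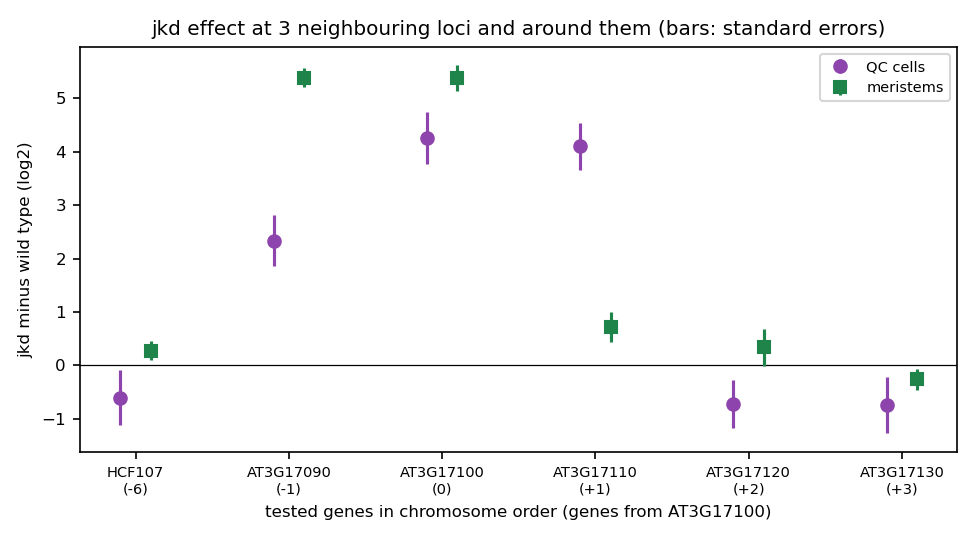
The jkd minus wild type difference (log2) in QC cells (circles) and meristems (squares) for the tested genes around AT3G17100 in chromosome order; bars are standard errors, and the number under a name counts genes from AT3G17100. AT3G17090 and AT3G17100 are high in both tissues, AT3G17110 is high in the QC, and the other genes lie near 0.

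Transcription factor and signalling genes followed. NAP, a NAC factor that promotes leaf senescence, had 1989, 2979 and 3204 in jkd QC, against 611.4, 604.6 and 750.8 in WT QC. In jkd meristems it had 115.3, 93.2 and 95.6, against 2.54, 22.7 and 21.2 in WT meristems. Both tissues separated fully. On the log2 scale used the effects were close, 2.01 ± 0.29 in the QC and 1.97 ± 0.26 in meristems, for 1.99 ± 0.22 over both (adjusted p = 0.000126). The WT meristem signals of NAP are low, so its size in meristems, and with it this closeness, depends on the added constant. Over both tissues the difference ran from 1.5 to 3.4 in the other settings. NAP passed in each of the 24 other settings tried. PSK5, a precursor of the growth peptide phytosulfokine, rose by 1.21 ± 0.24 (adjusted p = 0.0405), with 394.6, 584.4 and 540.8 in jkd QC, against 194.2, 110.2 and 221.6 in WT QC. AT4G37010, which encodes the calcium binding centrin CEN2, rose by 1.48 ± 0.22 (adjusted p = 0.0031). EXPA1, an expansin that loosens cell walls, lies 6 genes from NAP and rose by 1.42 ± 0.29 (adjusted p = 0.0405). The tested genes between them, AT1G69510 and AT1G69526, did not pass. PSK5 kept its call in 9 of the 24 other settings and in 1 of the 12 that left out an array, and EXPA1 in 11 of the 24 and 5 of the 12.

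CINV2, SUS1 and PGL4 encode enzymes of carbohydrate metabolism and are set together only for description, with no list behind them. CINV2, a neutral invertase that cleaves sucrose in the cytosol, had 52.5, 155.6 and 235.6 in jkd QC, against 28.4, 48.0 and 12.3 in WT QC. In jkd meristems it had 209.5, 251.6 and 271.3, against 44.9, 85.7 and 68.9 in WT meristems. Its groups were apart in both tissues, narrowly so in the QC, and it rose by 1.71 ± 0.30 (adjusted p = 0.0135). SUS1, a sucrose synthase, rose by 0.96 ± 0.19 (adjusted p = 0.0405), with 117.8, 87.1 and 71.3 in jkd meristems, against 34.2, 39.4 and 34.1 in WT meristems. PGL4, named for 6-phosphogluconolactonase of the pentose phosphate pathway, rose by 1.44 ± 0.29 (adjusted p = 0.0402). SUS1 kept its call in 8 of the 24 other settings and PGL4 in 9 of the 23 that tested it.

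The other rises included several genes without a symbol in the RefSeq table. AT5G66780 rose by 1.89 ± 0.27 (adjusted p = 0.00259), with 542.5, 318.2 and 194.2 in jkd meristems, against 51.9, 81.5 and 57.1 in WT meristems. AT3G57020 rose by 1.82 ± 0.26 (adjusted p = 0.00259), with 1658, 1559 and 1048 in jkd QC, against 415.8, 127.1 and 316.8 in WT QC. AT4G16146 rose by 1.83 ± 0.29 and AT2G40570 by 1.39 ± 0.22 (adjusted p = 0.00575 for each). The signals of AT2G40570 were tight, at 163.7, 175.3 and 170.8 in jkd meristems, against 42.5, 39.9 and 40.7 in WT meristems. AT4G20860 rose by 1.44 ± 0.24, AT3G20340 by 1.19 ± 0.20, AT4G38410 by 1.20 ± 0.24 and AT4G00895 by 1.16 ± 0.24. CYP72A13, a cytochrome P450, rose by 1.51 ± 0.26 (adjusted p = 0.0125). MT2A, a metal binding metallothionein, rose by 1.12 ± 0.21 (adjusted p = 0.0242), and RCI2A, a small membrane protein induced by cold, by 0.78 ± 0.16 (adjusted p = 0.049), the smallest change that passed. RCI2A passed in only 3 of the 24 other settings and in 0 of the 12 that left out an array. AT4G00895 kept its call in 2 of those 12, AT4G38410 in 4 and MT2A in 5.

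Among the 5 lower genes, CASP5, one of the CASP scaffold proteins, fell the most. Its signals were 5.53, 104.1 and 1.05 in jkd QC, against 536.2, 277.3 and 300.7 in WT QC. In jkd meristems they were 36.3, 73.3 and 62.4, against 171.3, 256.8 and 232.3 in WT meristems. All jkd arrays lay below all wild type arrays, with 1 jkd QC array above the others of its group. CASP5 fell by 2.55 ± 0.42 on the log2 scale over both tissues (adjusted p = 0.00862), and it passed in the QC alone (-3.39 ± 0.62, adjusted p = 0.0483) and in meristems alone (-1.70 ± 0.24, adjusted p = 0.0026). With an added constant of 1 the call over both tissues was lost (adjusted p = 0.0905). Of 12 Casparian strip genes 6 were on the table and tested. CASP5 alone passed, 1 lower and 0 higher, beside 0.0436% of all tested probe sets that fell. The list median was -0.79, beside -0.065 for all tested probe sets. The other tested members did not pass: CASP4 was at -0.96 ± 0.35, MYB36, a regulator of strip genes, at -0.82 ± 0.26, CASP2 at -0.76 ± 0.38, the peroxidase gene PER64 at -0.71 ± 0.38 and the receptor kinase gene SGN3 at 0.22 ± 0.36. The summed signal of all 6, CASP5 included, did not overlap between genotypes, at 326.4 to 490.9 in jkd QC, against 767.9 to 1432 in WT QC, and at 268.6 to 433.9 in jkd meristems, against 478.0 to 798.6 in WT meristems. Without CASP5 the sums were 320.8 to 489.9 in jkd QC, against 490.6 to 895.4 in WT QC, and 232.2 to 371.6 in jkd meristems, against 306.7 to 541.9 in WT meristems, where the groups then overlapped. Members with a mean signal under 16 numbered 1 in jkd QC and 0 in WT QC, and 2 in jkd meristems and 2 in WT meristems. SGN3 turned negative in some settings.

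CYP705A12 was the most regular of the falls. It had 321.5, 247.2 and 344.3 in jkd QC, against 1026, 1151 and 766.6 in WT QC. In jkd meristems it had 287.9, 395.2 and 298.4, against 641.1, 1196 and 1222 in WT meristems. The groups were apart in both tissues, and the effects were -1.63 ± 0.33 in the QC and -1.55 ± 0.24 in meristems. It fell by 1.59 ± 0.20 over both tissues (adjusted p = 0.000411) and passed in all 24 other settings. CYP705A12 lies next to genes of marneral metabolism, a triterpene pathway of roots, and of these the oxidase gene CYP71A16 (-0.45) and MRN1 (-0.37) did not pass. AT4G16447 fell by 1.47 ± 0.30 (adjusted p = 0.0405) and AT5G45210 by 1.30 ± 0.25 (adjusted p = 0.0269). AT4G16447 kept its call in 8 of the 23 other settings that tested it and in 1 of the 12 that left out an array, and AT5G45210 in 13 of 23 and 6 of 12. AT5G45210 had 1.89, 1.17 and 2.14 in jkd QC, against 30.2, 72.7 and 27.2 in WT QC, so its jkd signals there are near the bottom of the scale.

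**Figure D4:**
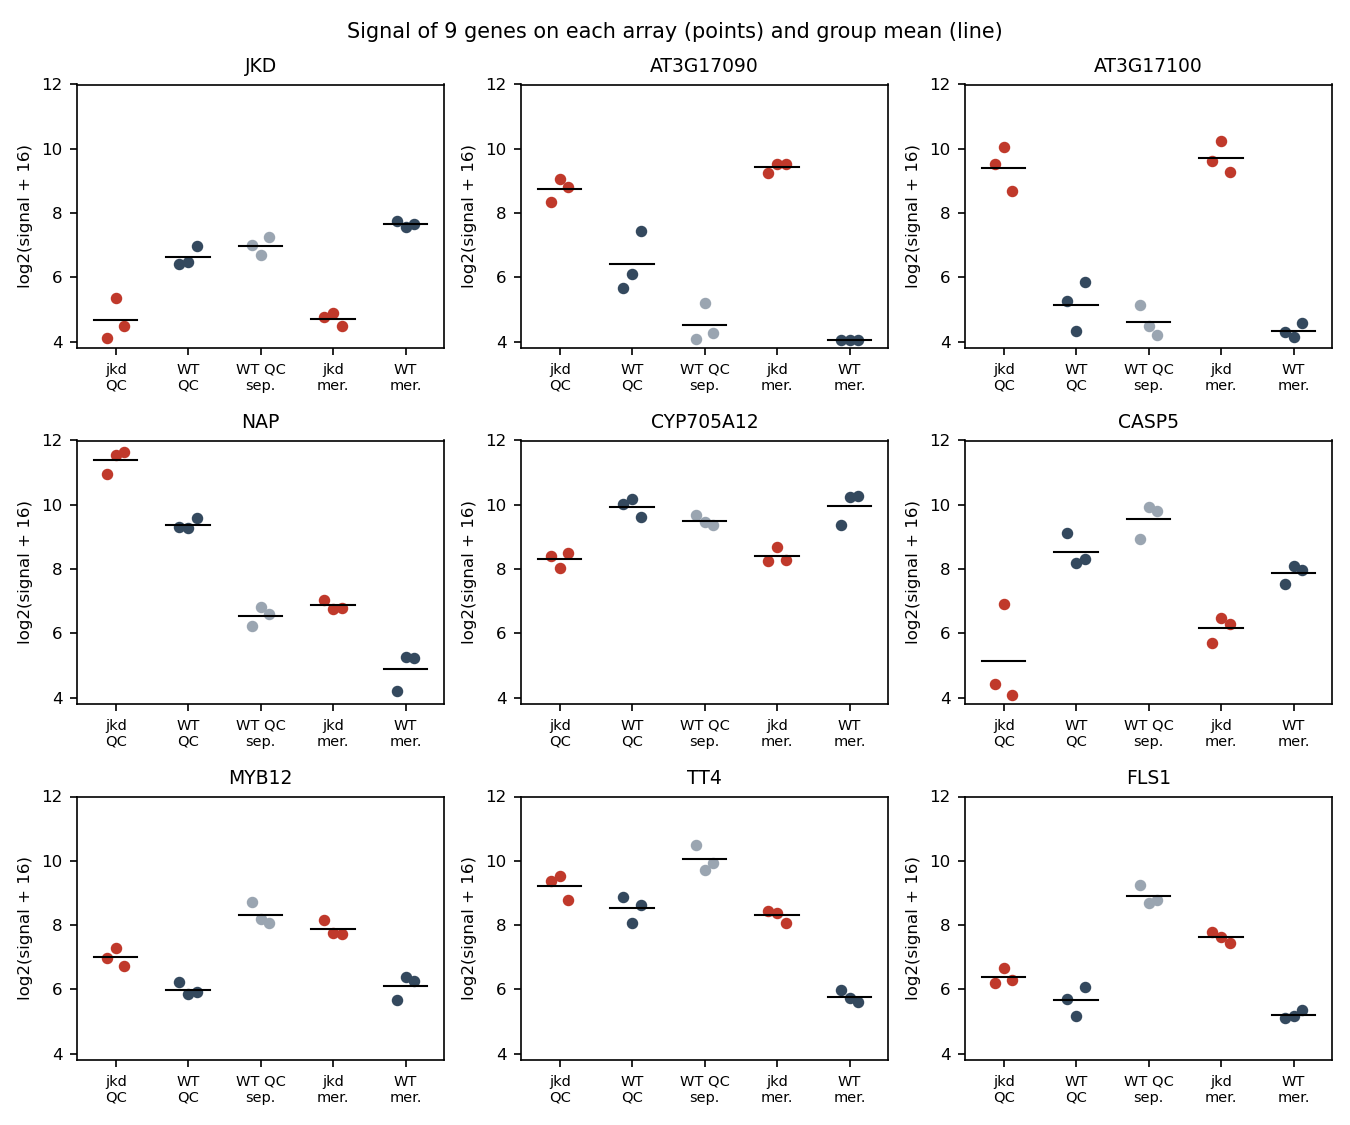
Signals of 9 genes that passed over both tissues, on log2(signal + 16), for each array (points) with the group mean (line); jkd groups stand left of their wild type groups, and the separate wild type QC harvest is in grey. JKD, CYP705A12 and CASP5 are low in jkd in both tissues, and MYB12, TT4 and FLS1 of the separate harvest lie above jkd QC.

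Of the lists used here, flavonoid synthesis held the largest share of passing members. Of 14 listed genes 12 were on the table and 6 were tested, and 3 rose over both tissues and 0 fell, beside 0.218% of all tested probe sets that rose, with a list median of 1.29 beside -0.065 for all. The regulator MYB12 rose by 1.38 ± 0.24 (adjusted p = 0.0124). TT4, the chalcone synthase at the entry of the pathway, rose by 1.62 ± 0.30 (adjusted p = 0.0198), and FLS1, the flavonol synthase, by 1.57 ± 0.30 (adjusted p = 0.0275). TT4 and FLS1 each kept the call in 5 of the 12 settings that left out an array, losing it without any single meristem array or without WT QC replicate 2, and neither passed with the replicate block. MYB12 lost its call without jkd meristem replicate 1 and with the replicate block. All 3 genes also lost the call over both tissues with the separate wild type QC harvest, in place of WT QC or beside it. The other tested members did not pass: the hydroxylase gene F3H was at 1.20 ± 0.32, the glucosyltransferase gene UGT78D2 at 0.67 ± 0.24 and the hydroxylase gene TT7 at 0.31 ± 0.27.

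The flavonoid differences were estimated larger in meristems than in the QC, by margins that did not pass. TT4 had 333.7, 319.4 and 251.4 in jkd meristems, against 47.4, 37.0 and 32.9 in WT meristems, a rise of 2.53 ± 0.20 (adjusted p = 1.5e-05). In the QC it had 646.3, 728.7 and 423.2 in jkd, against 449.7, 254.0 and 378.9 in wild type, and these groups overlapped (0.71 ± 0.36, adjusted p = 0.583). FLS1 rose by 2.41 ± 0.19 in meristems (adjusted p = 1.5e-05) and was at 0.73 ± 0.48 in the QC (adjusted p = 0.679). F3H rose by 2.23 ± 0.17 in meristems (adjusted p = 1.17e-05) and was at 0.16 ± 0.40 in the QC. In meristems alone 5 of the 6 tested members rose, beside 0.741% of all tested probe sets, and in the QC alone 0 passed and 1 had an unadjusted p under 0.05. The effect in the QC minus that in meristems was -1.82 ± 0.42 for TT4, -1.68 ± 0.46 for FLS1 and -2.06 ± 0.42 for F3H, and none of these passed (adjusted p = 0.182, 0.318 and 0.104).

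The direction of the flavonoid genes in the QC depended on which wild type harvest was used. The separate wild type QC harvest had 400.5, 276.9 and 249.5 for MYB12 and 592.8, 397.2 and 423.9 for FLS1, above all jkd QC arrays (88.8 to 141.6 and 57.7 to 85.8). With that harvest in place of WT QC, the jkd effect in the QC was -1.32 for MYB12 (adjusted p = 0.0117), -2.52 for FLS1 (adjusted p = 0.000214), -1.90 for F3H (adjusted p = 0.00101) and -0.82 for TT4 (adjusted p = 0.0553). FLS1 over both tissues was then at -0.05 (adjusted p = 0.963). Of the 30 genes, 27 kept their sign in the QC against that harvest, and MYB12, TT4 and FLS1 did not.

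Among 10 heat shock genes 1 rose past the threshold, beside 0.218% of all tested probe sets that rose. All 10 on the table were tested, all 10 differences were positive (HSP18.2 was negative with array weights), and 7 had an unadjusted p under 0.05, beside 3.8% of all tested probe sets that were higher at such a p. The list median was 0.55. HSP17.6A, a small heat shock protein that binds unfolded proteins, had 115.9, 141.2 and 122.6 in jkd meristems, against 20.9, 52.5 and 37.5 in WT meristems. In the QC it had 8120, 5794 and 6489 in jkd, against 4525, 3842 and 3731 in wild type. Both tissues separated, and it rose by 1.11 ± 0.20 (adjusted p = 0.0152). HSP17.6A kept its call in 18 of the 24 other settings and in 9 of the 12 that left out an array. The call was lost with quantile normalization, with both wild type QC harvests and with all 26 arrays. HSP17.4 came close at 0.92 ± 0.20 (adjusted p = 0.0556), and HSP21 of the plastid was at 0.91 ± 0.33, from 1.92 ± 0.38 in the QC and -0.10 ± 0.16 in meristems. HSP101 was at 0.51 ± 0.19, HSP70 at 0.47 ± 0.16 and HSP90.1 at 0.28 ± 0.18. Summed signals of the 10 genes were 63269 to 90917 in jkd QC, against 47755 to 52295 in WT QC and 10339 to 14513 in the separate wild type harvest, and 4505 to 5683 in jkd meristems, against 3868 to 5319 in WT meristems.

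Many genes that rose also differed between the wild type QC harvests. Of the 25 higher genes, 12 had all WT QC arrays above all arrays of the separate wild type harvest (48.0%), beside 17.7% of all tested probe sets. NAP had 59.5, 97.8 and 80.1 in that harvest, all far below its WT QC signals. The 13 genes of the stress and protoplasting list summed to 32684 to 35657 in jkd QC, against 28693 to 37341 in WT QC, and to 8285 to 10789 in jkd meristems, against 8587 to 9155 in WT meristems. None of the 13 passed over both tissues (0 higher and 0 lower, with limma). At an unadjusted p under 0.05, 1 was higher and 1 lower, beside 3.8% and 6.15% of all tested probe sets. In meristems alone 2 of the 13 rose past the threshold, RD29A among them, beside 0.741% of all tested probe sets. In the QC alone 0 passed. RD29A, a gene of drought and cold response, was at 1.65 ± 0.36 (adjusted p = 0.0582) and ERF6 at -0.38 ± 0.17. RD29A rose by 2.87 ± 0.27 in meristems (adjusted p = 0.000144) and was at 0.43 ± 0.26 in the QC. The part of stress, or of the harvest, in these rises was not tested.

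Within the IDD family, 8 members were tested and JKD alone passed over both tissues. IDD7 was at 1.51 ± 0.33 (adjusted p = 0.0641), with 143.6, 372.9 and 268.1 in jkd QC, against 30.3, 21.0 and 37.3 in WT QC. In jkd meristems it had 205.0, 296.9 and 216.2, against 166.2, 180.2 and 147.6 in WT meristems. All jkd arrays were above all wild type arrays in both tissues, and in the QC alone IDD7 rose by 2.53 ± 0.46 (adjusted p = 0.0477). NUC, which acts with JKD in the ground tissue, was at -0.16 ± 0.21.

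None of the 8 tested genes of the SHR and SCR network passed (0 with limma). At an unadjusted p under 0.05, 1 was lower, beside 6.15% of all tested probe sets, and the list median was 0.11. SCR had 72.5, 89.7 and 58.0 in jkd QC, against 225.0, 417.7 and 125.0 in WT QC, and 178.8, 187.8 and 175.5 in jkd meristems, against 276.5, 230.1 and 236.4 in WT meristems. Its jkd arrays were below its wild type arrays in both tissues, and its difference was -0.94 ± 0.27 (adjusted p = 0.233). SHR was at -0.53 ± 0.32 (adjusted p = 0.607).

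Markers of root cell types gave no further call over both tissues. In the QC and niche list 0 of 12 passed, with a median of -0.27, and the PLETHORA gene BBM was at 0.57 ± 0.23 and the zinc finger gene WIP4 at -0.78 ± 0.32. BBM had 318.5, 431.4 and 332.7 in jkd QC, against 154.2, 192.0 and 154.1 in WT QC, but 434.5 to 595.2 in the separate wild type harvest. In the root hair list 0 of 14 passed and 5 were lower at an unadjusted p under 0.05, beside 6.15% of all tested probe sets. Its median was -0.68 over both tissues, -1.31 in the QC and -0.01 in meristems. PRP3, a cell wall protein of root hairs, was at -1.39 ± 0.33 (adjusted p = 0.0981) and EXPA18 at -1.33 ± 0.39, and PRP3 passed in the QC alone (-2.18 ± 0.39, adjusted p = 0.0477). Summed root hair signal was 2768 to 3715 in jkd QC, against 4159 to 10762 in WT QC, and 4167 to 5366 in jkd meristems, against 3392 to 5334 in WT meristems. Among 8 xylem genes 4 were lower at an unadjusted p under 0.05, against the same 6.15%, and 0 passed, with IRX5, a cellulose synthase of secondary walls, and ATHB8, a vascular homeodomain factor, at -0.89 ± 0.28 each. The 9 xylem genes on the table summed to 343.6 to 472.4 in jkd QC, against 616.7 to 783.9 in WT QC, and overlapped in meristems. In jkd QC 5 of the 9 had a mean signal under 16, against 0 in WT QC. SEOR1 (-1.03 ± 0.44) and OPS (-0.44 ± 0.24) of the phloem, BRN1 (-0.42 ± 0.24) and SMB (-0.55 ± 0.24) of the root cap, WER (-0.27 ± 0.18) and TRY (-0.49 ± 0.25) of epidermal fate, and KCS20 (0.26 ± 0.22) and AT5G22500 (1.18 ± 0.40) of suberin did not pass either. Like the Casparian strip sums, the phloem sums (4 genes) lay apart in both tissues. They were 249.9 to 300.2 in jkd QC, against 427.9 to 494.6 in WT QC. In jkd meristems they were 134.3 to 137.0, against 139.3 to 168.3 in WT meristems. Suberin sums were higher in jkd QC (304.0 to 585.9, against 196.0 to 288.6 in WT QC) and overlapped in meristems. The separate wild type QC harvest had suberin sums of 313.7 to 438.8, within the jkd QC range. Of the 9 suberin genes on the table, 6 had a mean signal under 16 in jkd QC and 5 in WT QC. Root cap and epidermal fate sums overlapped in both tissues.

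**Figure D5:**
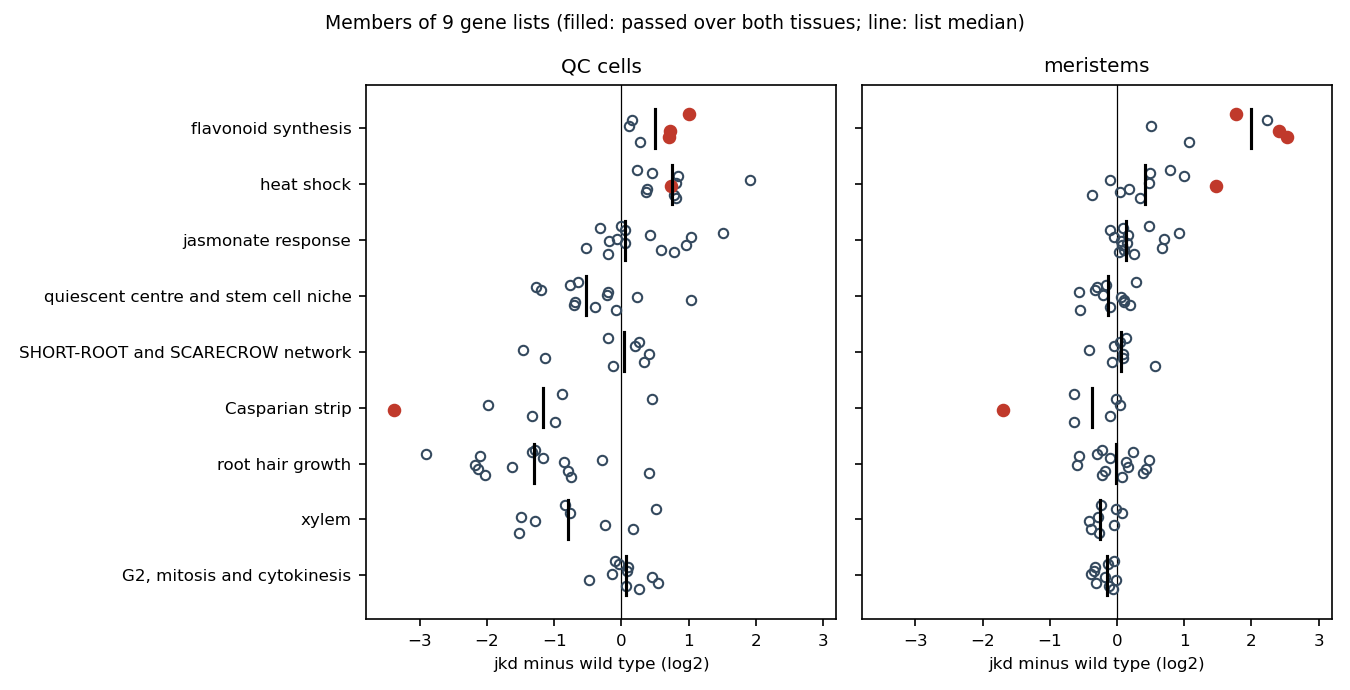
Members of 9 gene lists, each point 1 gene, by jkd minus wild type difference (log2) in QC cells (left) and meristems (right); filled points passed over both tissues, and vertical lines are list medians. Flavonoid genes lie further right in meristems, Casparian strip genes lie left of 0 in the QC but for SGN3, and genes of G2 and mitosis stay near 0.

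Cell cycle and hormone lists gave 0 calls over both tissues with limma. None of 7 D-type cyclins, 7 S phase genes or 10 genes of G2 and mitosis had even an unadjusted p under 0.05, with medians of -0.18, -0.02 and -0.08. CYCD4;1 was at -0.54 ± 0.26 and CYCD6;1, a direct target of SHR and SCR, at 0.25 ± 0.29, while CDC45 was at -0.36 ± 0.22, POLA2 at -0.26 ± 0.31, CDC20.1 at -0.25 ± 0.21 and MAD2 at -0.26 ± 0.29. Of 10 cell cycle inhibitors and endocycle genes 2 were lower at an unadjusted p under 0.05, beside 6.15% of all tested probe sets, KRP7 (-0.64 ± 0.22) and CCS52A1 (-0.48 ± 0.22). In the auxin response list 0 of 20 passed, with IAA1 at -1.08 ± 0.34 and HAT2 at -0.58 ± 0.19, and among synthesis and transport genes LAX3 was at -0.74 ± 0.33 and YUC2 at 0.41 ± 0.28. CKX6 (-0.96 ± 0.36) and ARR5 (-0.68 ± 0.25) of cytokinin, GA20OX2 (-0.51 ± 0.23) and GA2OX2 (0.79 ± 0.35) of gibberellin, CPD (-0.50 ± 0.24) and BRL3 (-0.55 ± 0.31) of brassinosteroids and ACS6 (0.26 ± 0.21) and ETR2 (0.60 ± 0.45) of ethylene did not pass. All 7 tested cytokinin genes were negative, with a median of -0.50. Lower at an unadjusted p under 0.05 were 2 of them and 3 of 20 auxin response genes, beside 6.15% of all tested probe sets. In the jasmonate list 3 of 14 were higher at an unadjusted p under 0.05, beside 3.8% of all tested probe sets, led by JAZ8 (1.22 ± 0.32, adjusted p = 0.154) and AOC3 (0.51 ± 0.18).

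Nutrient lists also gave 0 calls over both tissues with limma. NAS2, an enzyme of the iron chelator nicotianamine, had 15.7, 5.28 and 4.28 in jkd QC, against 46.0, 54.3 and 43.8 in WT QC, and 27.0, 25.2 and 27.0 in jkd meristems, against 53.9, 57.5 and 51.4 in WT meristems. Its groups were apart in both tissues, and its difference of -1.07 ± 0.23 just missed the threshold (adjusted p = 0.0582). The iron storage gene FER1 was at 0.91 ± 0.22 over both tissues and rose by 1.57 ± 0.22 in meristems (adjusted p = 0.00249). In meristems alone 2 of the 8 tested iron genes fell, beside 0.14% of all tested probe sets. They were the transcription factor gene BHLH39 (-1.49 ± 0.25, adjusted p = 0.0139) and the transporter gene OPT3 (-0.99 ± 0.20, adjusted p = 0.0324). OPT3 lost that call on leaving out most single arrays, and BHLH39 on leaving out jkd meristem replicate 3. Of 8 tested iron genes, 1 was higher and 3 were lower over both tissues at an unadjusted p under 0.05, beside 3.8% and 6.15% of all tested probe sets. The phosphate genes PHT1;1 (-0.54 ± 0.31) and PHO1 (-0.48 ± 0.29) did not pass.

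Whether the jkd effect differed between QC cells and meristems was tested directly. With limma 0 of 11469 probe sets passed (0.0%), 909 had an unadjusted p under 0.05, and the lowest adjusted p was 0.0781. The genes closest to the threshold with opposite signs were AT5G57770, AT1G33055, AT4G23670 and AT4G35380. AT1G33055 had 1909, 629.2 and 1001 in jkd QC, against 226.5, 134.0 and 62.6 in WT QC, but 0.60, 1.39 and 2.05 in jkd meristems, against 7.21, 0.79 and 7.08 in WT meristems. Its difference between tissues was 3.19 ± 0.61, and its meristem signals are at the bottom of the scale. AT4G23670 had a difference of 1.90 ± 0.36, AT5G57770 of -2.30 ± 0.43 and AT4G35380 of -2.37 ± 0.44. The median standard error of this contrast was 0.479, so differences well above 1 could still miss the threshold, and a p above it does not show that the tissues respond alike.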

How the data were processed

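The authors deposited MAS5 signal intensity values on a linear scale, per the submitters' processing notes, in a matrix of 16384 probe sets of 16255 loci. Not given in the sources used here: MAS5 version and scaling, detection calls, array type, genome build. Per the labels' protocols, RNA was amplified before labelling. Only 401 probe sets belong to chromosome 2. Symbols come from the RefSeq gene table (TAIR10.1), which held 16032 loci.

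From these values log2(signal + 16) was computed with no further normalization. Probe sets whose mean over the 12 arrays reached the 30th percentile (11469) were tested with limma 3.58.1 in R 4.3.3 (lmFit, eBayes with trend and robust), with Benjamini-Hochberg adjustment. The model over both tissues had genotype and tissue as terms. Each tissue was also fitted alone on 6 arrays, and the difference between tissues on 4 group means. Figures used matplotlib 3.10.9 in Python 3.11.15. The steps were tested on simulated data. The number of arrays limits the precision.

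The members and lists were chosen with earlier results of these data known. Genes named are JKD, the 10 largest rises and falls that passed with arrays apart in both tissues, up to 4 passing members of each list or else 2 by smallest p, and the 4 genes with opposite signs nearest the threshold for the difference between tissues. The remaining genes that passed, the other tested flavonoid, Casparian strip and heat shock genes, IDD7, NUC, BHLH39, OPT3 and the neighbouring genes were named after their values were seen. Same-numbered arrays of the genotypes did not deviate together (correlations of -0.108 to 0.0473), so the numbers do not pair them. The cortex list has 0 members on the table. A planned count of a promoter motif was not run, as no promoter sequences were used here.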

Additional observations from a re-analysis of the deposited data

How the results depend on the processing

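The gene values covered are those printed here and close relatives, a set drawn up with values in view: 215 values gave 4110 other estimates. Of these 3673 kept direction and side of the threshold, 287 kept direction but no longer passed, 112 newly passed and 38 changed sign. Depth has no counterpart here, and weak signals limit JKD, AT3G17100 and AT5G45210. Of the 30 genes over both tissues, 8 passed in all 24 other settings, 14 in all 12 that left out an array, and 29 kept their sign throughout, FLS1 being the exception. The causes of the changes were not tested.

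Calls over both tissues numbered 19 with the filter at the 50th percentile, 196 with array weights (134 higher, 62 lower), 561 with the separate wild type QC harvest in place (259 higher, 302 lower), 63 with both wild type harvests (41 higher, 22 lower), 80 with all 26 arrays (45 higher, 35 lower), 78 with 4 group means (48 higher, 30 lower) and 16 to 31 without 1 array, lowest without WT meristem replicate 3. With quantile normalization there were 21 calls over both tissues (16 higher, 5 lower), and 19 of the 30 genes were among them. With the replicate block calls numbered 17 over both tissues, 42 in the QC, 178 in meristems and 0 for the difference between tissues, and the numbers do not pair the arrays. Calls in the QC numbered 8 with an added constant of 1, 6 with the 50th percentile filter, 2 with plain eBayes, 53 with array weights, 3050 with the separate harvest (1131 higher, 1919 lower) and 2 to 10 without 1 array, lowest without jkd QC replicate 3. Calls in meristems numbered 60 with no filter, 60 with the 50th percentile filter, 173 with array weights and 44 to 77 without 1 array, lowest without jkd meristem replicate 1. Calls for the difference between tissues numbered 2 with a constant of 1, 7 with a constant of 64, 30 with array weights and 0 to 5 without 1 array, highest without jkd QC replicate 2.

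A change of sign is given whether or not the value passed. With array weights, values over both tissues were -0.18 for HSP18.2, 0.10 for SHR, 0.15 for AT4G35380, -0.01 for AT4G23670, 0.01 for AT1G69510 and 0.11 for HCF107, and in meristems -0.00 for CASP4 and -0.01 for BBM. HCF107 was at 0.01 with quantile normalization. With both harvests, NUC was at 0.21, SGN3 at -0.50 and ACS6 at -0.41 over both tissues. With the separate harvest in place, values over both tissues were 0.34 for PHO1, -0.07 for ETR2, -0.19 for BBM, 0.53 for NUC, -0.14 for KCS20, -1.10 for SGN3, -0.90 for ACS6, -0.05 for FLS1 and -0.15 for AOC3. In the QC they were -0.82 for TT4, -0.43 for UGT78D2, -0.49 for BBM, -1.32 for MYB12, -0.23 for TT7, -2.52 for FLS1 and -1.90 for F3H. Without 1 array, values ran from -0.10 to 0.43 for SGN3 and from -0.27 to 0.06 for HCF107 over both tissues, from -0.01 to 0.43 for UGT78D2, from -0.29 to 0.40 for TT7 and from -0.14 to 0.41 for F3H in the QC, and from -0.13 to 0.26 for AT5G57770 and from -0.08 to 0.20 for CASP4 in meristems.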
